A study of Physcomitrium patens with 24 samples.

Results

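Pp3c9_6640 and Pp3c14_3360 are 2 genes of the HSP90 family of the moss Physcomitrella patens, out of 32926 genes counted. They were chosen by gene identifier, with earlier results of these data known. Both were expressed above the filter used here (21429 genes were). Protonemata, the filamentous juvenile tissue of the moss, of the Gransden strain and 7 days old, were grown at 24 °C and then either kept at 24 °C or moved to 30 °C or 37 °C. Tissue was taken after 1, 6, 12 and 24 h. Each of the 12 groups of temperature and time had 2 biological replicates, and messenger RNA of all 24 samples was sequenced from stranded libraries. All groups were the same unmodified strain on the same medium, and the 24 °C group of each time served as the control of both heated groups of that time.

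HSP90 proteins are dimeric, ATP-driven chaperones that act late in the folding of other proteins, among them kinases, receptors and transcription factors. Plant cells have separate HSP90 proteins for the cytosol, the endoplasmic reticulum (ER), the chloroplast and the mitochondrion. The cytosolic proteins work with co-chaperones such as Hop, which passes clients over from HSP70, and Aha1, which speeds up the ATPase cycle. In plants, cytosolic HSP90 is also known to hold heat shock factors, the transcription factors of the heat response, in an inactive state.

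The names of the genes come from protein similarity to Arabidopsis thaliana in the tables of the study. Pp3c9_6640 is named there heat shock protein 81-2, while the Arabidopsis protein listed beside it in the same table is a cytosolic HSP90 of a different name. Pp3c14_3360 is a member of the htpG family whose nearest Arabidopsis protein is endoplasmin, the ER form also called GRP94. Both names were given because the genes were in lists that the study built from these same libraries, so that a rise of these genes with heat is not independent evidence. Another 2 HSP90 genes carry names in those tables: Pp3c15_4270, also named heat shock protein 81-2, and Pp3c19_15000, whose nearest Arabidopsis protein is the chloroplast HSP90.

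Heat shock factors bind heat shock elements, which are inverted repeats of the bases GAA and TTC. The study listed 67 sites upstream of 49 genes that matched a heat shock factor motif, all taken from genes that were most typical of 1 cluster of heat-responsive genes. Pp3c9_6640 had 2 of these sites, and 10 of the 49 genes had more than 1. Pp3c14_3360 and Pp3c15_4270 are not in that list, from which nothing follows about their upstream regions. The sites of Pp3c9_6640 are shown here with those of 3 chaperone genes described below, because they are the only regulatory sequences at hand for these genes. Each line gives 28 bases, with the 12 bases of the listed site in capitals between 8 flanking bases on either side, written on the strand given by the study.
Pp3c9_6640, site on the minus strand: gttgaatgGAAGCTTCTCGAgagtctga
Pp3c9_6640, second site on the minus strand: ccactgagGAAGGATCCAGAgcctcgga
Pp3c11_20290, Hop homolog, minus strand: cttcgaagGAAGCTCCTAGAaccctact
Pp3c14_19430, ER HSP70 homolog, plus strand: attcatcaGAACCATCCAGAaagtaggg
Pp3c11_1010, cytosolic HSP70 homolog, minus strand: aggtccccGAAGCCTCCAGAagctctaa
The first site of Pp3c9_6640 holds the palindrome GAANNTTC, which reads the same on both strands. Among all 67 listed sites with their flanks, 25 (37.3%) hold it. The other 4 sequences do not, and none of the 5 holds TTCNNGAA, the other order of the repeat, which 21 of the 67 (31.3%) hold. These are matches of letters in windows that were selected for a similar motif.

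Levels are given as CPM, read counts relative to library size and scaled by TMM (trimmed mean of M-values) factors, and are compared only within a gene, because gene lengths were not used here. At 24 °C, the cytosolic homolog Pp3c9_6640 was low and even. Its replicates were at 14.3 and 16.0 CPM after 1 h, 14.8 and 12.1 after 6 h, 13.4 and 10.9 after 12 h, and 14.1 and 13.6 after 24 h, from 61 to 154 reads per library. Among these groups the log2 differences lay between -0.32 and 0.19, and none passed the test, which 13.8%, 14.1% and 3.74% of tested genes did for 6, 12 and 24 h against 1 h and 10.4% for 24 h against 12 h.

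At 37 °C, Pp3c9_6640 was at 615 and 373 CPM after 1 h, the highest of all groups. The level was 58.7 and 36.5 CPM after 6 h, 73.9 and 50.9 after 12 h, and 54.1 and 23.2 after 24 h. At each time both heated libraries lay above both 24 °C libraries, and the 3 later times overlapped each other. At 30 °C, the level was 137 and 87.5 CPM after 1 h, 30.4 and 23.7 after 6 h, 48.5 and 24.8 after 12 h, and 30.1 and 22.5 after 24 h. In order of mean level, 37 °C 1 h (494 ± 171 CPM, SD, n = 2) was followed by 30 °C 1 h (112 ± 34.8), and neither overlapped its next neighbour. From there, each of the 37 °C and 30 °C groups of 6, 12 and 24 h overlapped the next, down to the 24 °C groups, which all lay below the heated groups.

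**Figure D1:**
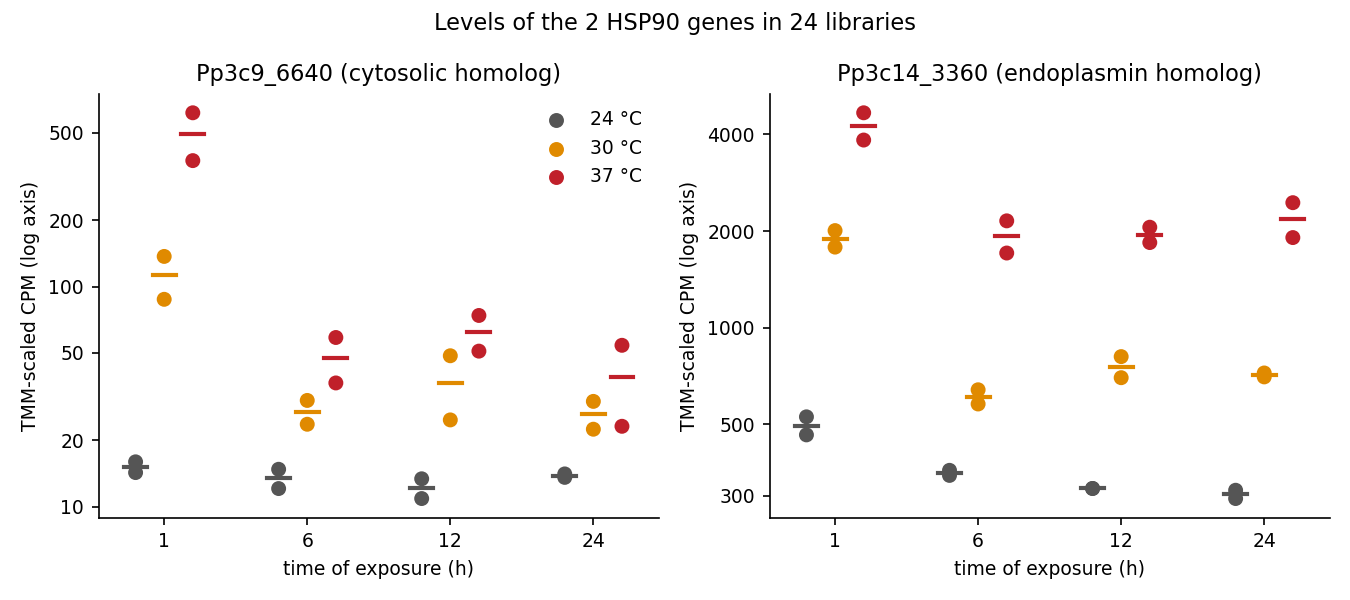
TMM-scaled CPM (log axis) of Pp3c9_6640 (left) and Pp3c14_3360 (right) by hours of exposure, with each point a library, each bar the mean of the 2 replicates and colours for 24, 30 and 37 °C. Both genes were highest after 1 h at 37 °C, at 615 and 373 CPM and at 4666 and 3838 CPM, and at every time all heated libraries lie above the 24 °C libraries.

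The ER homolog Pp3c14_3360 had from 1402 to 27511 reads per library. Its replicates at 24 °C were at 528 and 464 CPM after 1 h, 359.9 and 347 after 6 h, 316 in both after 12 h, and 294 and 312 after 24 h. The 1 h libraries were the highest of the controls, and the later 24 °C groups were lower than the 1 h group by log2 differences of -0.49 to -0.71 (edgeR adjusted p from 0.0043 to 0.025), which is under the fold change limit. At 37 °C, the level was 4666 and 3838 CPM after 1 h, 2151 and 1708 after 6 h, 2055 and 1841 after 12 h, and 2450.1 and 1908 after 24 h. At 30 °C, it was 2006 and 1782 CPM after 1 h, 641 and 579 after 6 h, 813 and 699 after 12 h, and 723 and 703 after 24 h. The 37 °C groups of 6, 12 and 24 h and the 30 °C group of 1 h overlapped in a row, with means of 1894 to 2179 CPM. The 30 °C groups of later times lay between these and the controls and overlapped neither.

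Replicate 1 was higher than replicate 2 in 11 of 12 groups for both genes, and in all 8 heated groups. The same order was seen in every group for Pp3c15_4270 and in most groups for Pp3c19_15000. Over all tested genes, replicate 1 was the higher one for 46.7% to 53.4% of genes in a group. That is a share within each group, and how many genes keep 1 order across the groups was not counted. Replicates of Pp3c9_6640 differed by up to 2.33 times (37 °C 24 h), and those of Pp3c14_3360 by up to 1.28 times.

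Heated and control samples were then compared at each time, to ask how fast and for how long each gene responded. Genes rose or fell where the adjusted p was under 0.05 over all genes tested and the log2 fold change was at least 1 in size. After 1 h at 37 °C, Pp3c9_6640 rose 32.6-fold (log2 5.03 ± 0.44, SE, 2 libraries against 2, edgeR adjusted p = 1.3e-07). Pp3c14_3360 rose 8.58-fold (log2 3.10 ± 0.17, adjusted p = 3.2e-10). Both members are thus among the 12.7% of tested genes that rose in this comparison, where they ranked 323 and 983 by fold change. In bulk tissue, more RNA per cell and more cells of a type cannot be told apart.

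The later responses at 37 °C were estimated for each gene alone, and a difference between the 2 genes was not tested. Pp3c9_6640 rose by a log2 fold change of 1.82 ± 0.40 after 6 h, 2.36 ± 0.40 after 12 h and 1.49 ± 0.41 after 24 h (adjusted p of 0.0011, 8.8e-05 and 0.0051). The 24 h value depended on 1 library, since it was 0.75 (adjusted p = 0.17) without 37 °C replicate 1. Pp3c14_3360 rose by 2.45 ± 0.16 after 6 h, 2.62 ± 0.16 after 12 h and 2.84 ± 0.16 after 24 h (adjusted p of 5.6e-09, 1.5e-09 and 4.5e-10). Of all tested genes, 13.8%, 16.7% and 18.0% rose at these times.

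At 30 °C, both genes rose after 1 h and after 12 h, and Pp3c14_3360 also after 24 h. After 1 h, when 2.46% of tested genes rose, the log2 fold change was 2.89 ± 0.41 for Pp3c9_6640 (adjusted p = 0.00034) and 1.93 ± 0.16 for Pp3c14_3360 (adjusted p = 8.5e-07). After 6 h, when 0.658% of genes rose, neither did. The values were 1.00 ± 0.40 for Pp3c9_6640 (adjusted p = 0.21) and 0.79 ± 0.15 for Pp3c14_3360 (adjusted p = 0.010, under the fold change limit). After 12 h (1.61% of genes), they were 1.61 ± 0.40 (adjusted p = 0.024) and 1.26 ± 0.15 (adjusted p = 0.00017). The 12 h call of Pp3c9_6640 was lost when 30 °C replicate 1 (log2 1.03, adjusted p = 0.23) or either 24 °C replicate was left out. After 24 h (9.30% of genes), Pp3c14_3360 rose by 1.23 ± 0.16 (adjusted p = 1.3e-05), while the value of Pp3c9_6640 was 0.92 ± 0.41 (adjusted p = 0.092).

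**Figure D2:**
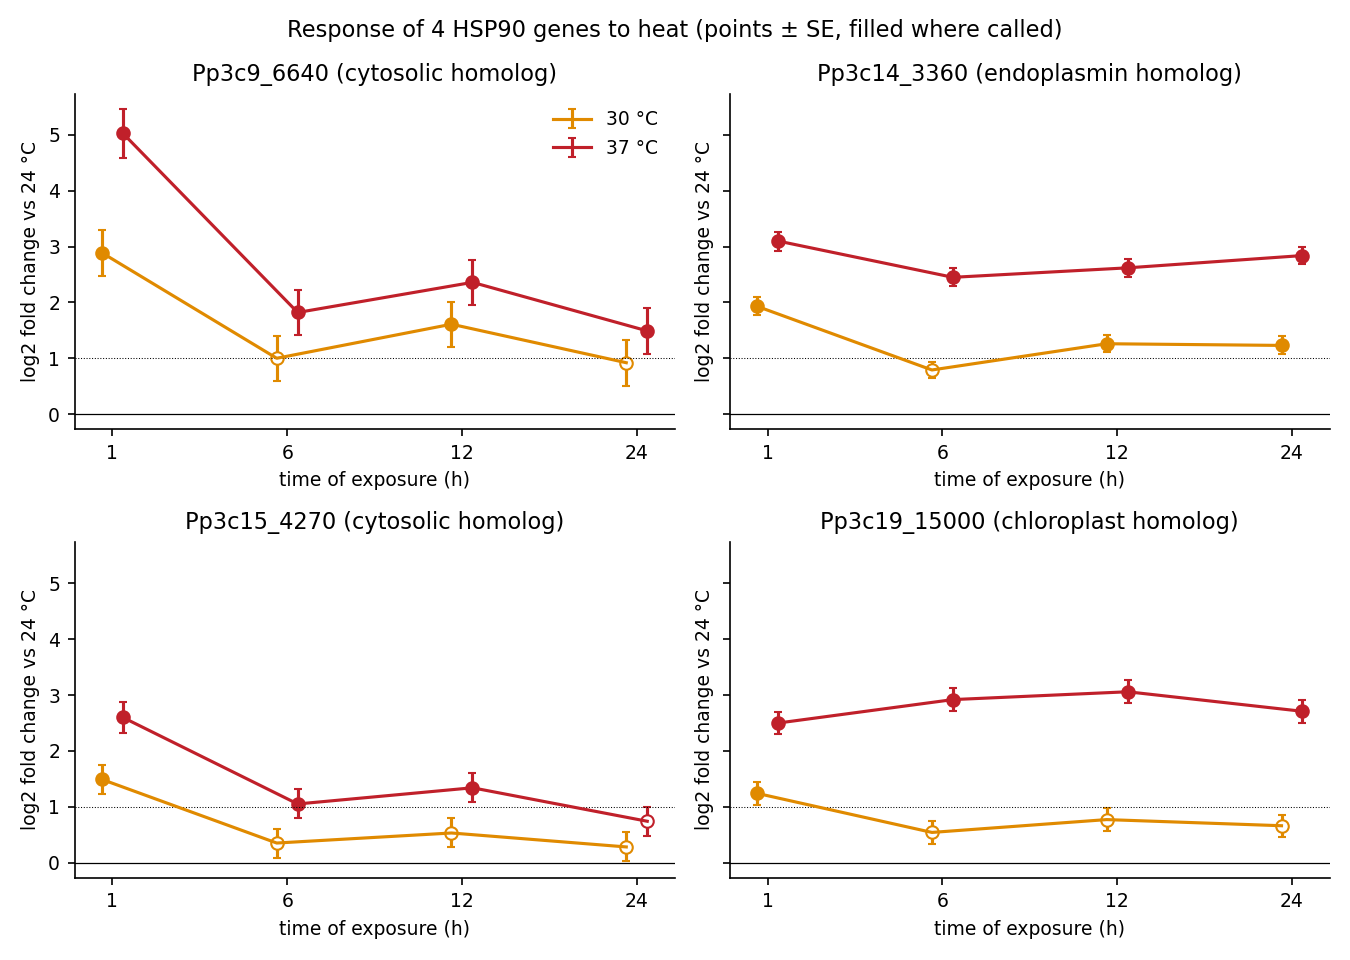
Log2 fold change against 24 °C of the same time (y axis) by hours of exposure (x axis) for the 2 genes described and another 2 HSP90 genes, at 30 °C (orange) and 37 °C (red), with bars for the standard error and filled points where the gene rose. At 37 °C the value of Pp3c9_6640 is 5.03 after 1 h and 1.49 after 24 h, and that of Pp3c14_3360 is 3.10 and 2.84. The 24 °C mean of Pp3c14_3360 was itself lower after 24 h (303 CPM) than after 1 h (496 CPM).

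Of the 13 rises of the 2 genes over the 8 comparisons, 7 were also found with limma-voom and treat, which tests against a fold change of 2 itself. These were all 4 of Pp3c14_3360 at 37 °C and its rise after 1 h at 30 °C, and those of Pp3c9_6640 after 1 h and 12 h at 37 °C. The study itself names the limma functions eBayes and treat as its tests. The numbers of rising genes at 30 °C in its discussion were 49, 1 and 8 after 1, 6 and 12 h. These equal the numbers found here with treat, whereas its number after 24 h does not. With treat, Pp3c9_6640 rose at no time at 30 °C (adjusted p = 0.19 after 1 h). Over all genes, treat left 49 of 528 rises after 1 h at 30 °C, and 874 in place of 2722 after 1 h at 37 °C. Scaling by library totals in place of TMM moved the median of all genes by -0.45 (log2) after 1 h at 37 °C. With library totals the log2 fold changes were 4.56 for Pp3c9_6640 and 2.63 for Pp3c14_3360, and both still rose. Relative to the shifted median they were at 5.01 and 3.08, close to the TMM values, as a change of scale that moves all genes alike must give.

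The change of the response with time was tested directly, as the log2 fold change at a later time less that at 1 h. At 37 °C, the response of Pp3c9_6640 fell by 3.21 ± 0.56 at 6 h, fell by 2.67 ± 0.56 at 12 h and fell by 3.54 ± 0.58 at 24 h (edgeR adjusted p of 0.00037, 0.0012 and 0.00012), and these held with any library left out. Such a fall in the response was found for 14.4%, 16.8% and 18.3% of tested genes. For Pp3c14_3360, the corresponding differences were -0.65 ± 0.22, -0.48 ± 0.22 and -0.26 ± 0.22 (adjusted p of 0.029, 0.093 and 0.37), none of which reached the fold change limit. Its mean level at 37 °C was 4252 CPM after 1 h and 2179 CPM after 24 h. Its 24 °C mean was 496 and 303 CPM at these times, so the small differences do not show a held level. Between 12 h and 24 h, neither gene's response differed past the test, with -0.87 (adjusted p = 0.34) and 0.22 (adjusted p = 0.55), where 11.1% of genes did. Whether the 2 genes differ from each other in this change was not tested.

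At 30 °C, the response of Pp3c9_6640 at 24 h, less that at 1 h, was -1.96 ± 0.58 (adjusted p = 0.026, 7.48% of genes fell), a call that was lost on leaving out any of 6 of the 8 libraries (lowest and highest value -2.25 and -1.61). At 6 h and 12 h the differences were -1.89 (adjusted p = 0.14) and -1.28 (adjusted p = 0.25, 1.23% of genes fell). For Pp3c14_3360 the difference was -1.15 ± 0.22 at 6 h (adjusted p = 0.024, 0.509% of genes fell), and the call was lost without any of 7 of the 8 libraries. Its differences at 12 h and 24 h were -0.68 (adjusted p = 0.11) and -0.70 (adjusted p = 0.033). From 12 h to 24 h the responses at 30 °C differed by -0.69 for Pp3c9_6640 (adjusted p = 0.54) and -0.02 for Pp3c14_3360 (adjusted p = 0.98), and 5.93% of genes changed.

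The 2 heat levels were also compared with each other at the same time. Pp3c14_3360 was higher at 37 °C than at 30 °C at all 4 times, with log2 differences of 1.17 ± 0.15 and 1.66 ± 0.16 at 1 and 6 h, and of 1.36 ± 0.15 and 1.61 ± 0.16 at 12 and 24 h (edgeR adjusted p from 3.9e-07 to 4e-05). The smallest of these, at 1 h, was 0.79 with library totals, where the median of all genes was at -0.35. Pp3c9_6640 was higher at 37 °C after 1 h, by 2.14 ± 0.38 (edgeR adjusted p = 0.00056). At 6, 12 and 24 h its differences were 0.82, 0.74 and 0.57 (adjusted p of 0.093, 0.11 and 0.23), and at 24 h the 2 groups overlapped and the difference was -0.18 without 37 °C replicate 1. Of all tested genes, 8.16%, 9.75%, 11.9% and 12.7% were higher at 37 °C at the 4 times.

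The reads of the 2 genes can be set against each other within a library, where no scaling enters. At 24 °C, Pp3c9_6640 had between 2.71% and 4.78% of the reads of Pp3c14_3360 (median 3.80%, 8 libraries). After 1 h at 37 °C this share was 13.2% and 9.71%, above every other library. It was 2.73% and 2.14% after 6 h, 3.60% and 2.77% after 12 h, and 2.21% and 1.22% after 24 h, when the 24 °C libraries were at 4.78% and 4.35%. Against 24 °C of the same time, the mean ratio at 37 °C was thus 3.70 times as high after 1 h, and 0.64, 0.83 and 0.36 times as high later. At 30 °C, the share was 6.81% and 4.91% after 1 h and 4.17% and 3.20% after 24 h. Averaged over the 4 times, the mean log2 ratio differed by -0.13 between 37 °C and 24 °C, by 0.27 between 30 °C and 24 °C, and by -0.40 between 37 °C and 30 °C. None of these passed an exact two-sided permutation test within times (p of 0.73, 0.16 and 0.20, adjusted over the 3 tests 0.73, 0.30 and 0.30; 1296 arrangements, smallest possible p = 0.0015). At 37 °C the differences from 24 °C were 1.89, -0.65, -0.27 and -1.48 at the 4 times, and the average sets these against each other. The test therefore cannot show a change of the ratio that reverses with time. The ratio at single times was not tested.

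**Figure D3:**
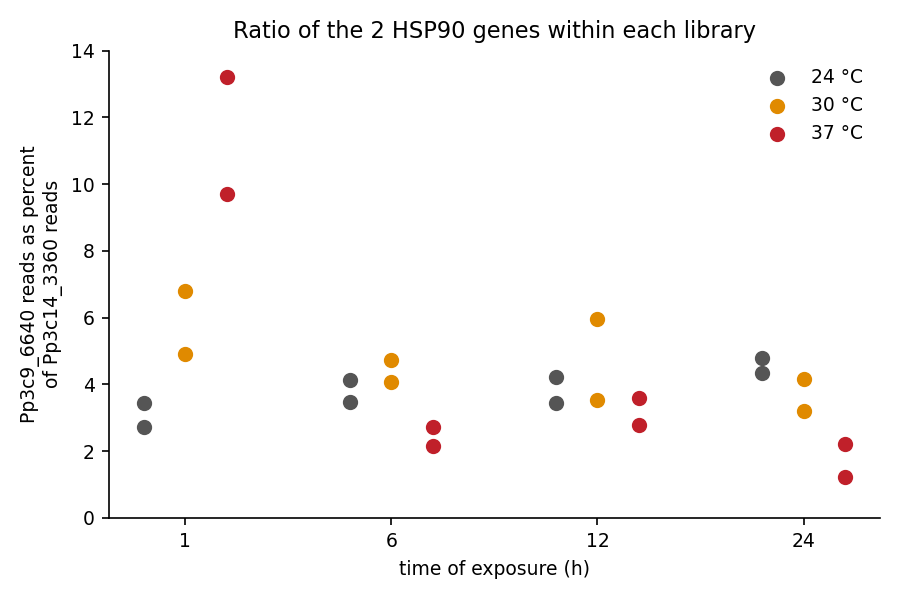
Reads of Pp3c9_6640 as a percent of the reads of Pp3c14_3360 in each library (y axis) by hours of exposure (x axis), with colours for 24, 30 and 37 °C. The 37 °C libraries are at 13.2% and 9.71% after 1 h and at 2.21% and 1.22% after 24 h, above and below the 24 °C libraries of the same times.

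Of the remaining named HSP90 genes, 1 had its largest response at 37 °C after 1 h and the other rose at all 4 times. Pp3c15_4270, the other cytosolic homolog, was at 417 and 321 CPM at 24 °C and 2717 and 1764 CPM at 37 °C after 1 h, and at 260.0 and 243 against 540.1 and 302 CPM after 24 h. It rose by a log2 fold change of 2.60 ± 0.27 after 1 h, 1.05 ± 0.26 after 6 h and 1.34 ± 0.26 after 12 h, and was at 0.74 ± 0.26 after 24 h (edgeR adjusted p = 0.021). Its response at 24 h, less that at 1 h, was -1.86 ± 0.37 (adjusted p = 0.00065). The chloroplast homolog Pp3c19_15000 was at 96.8 and 85.9 CPM at 24 °C and 611 and 426 CPM at 37 °C after 1 h, and at 58.4 and 57.0 against 445 and 309.9 CPM after 24 h. It rose by 2.50 ± 0.20, 2.92 ± 0.21, 3.06 ± 0.21 and 2.71 ± 0.21 at the 4 times, and its response at 24 h and 1 h differed by 0.21 ± 0.27 (adjusted p = 0.59). Its mean level at 37 °C was 518, 306, 458 and 377 CPM at these times, so the mean was highest after 1 h. The 24 °C mean was 91.3 CPM after 1 h and 40.3 after 6 h (log2 -1.18 ± 0.20, edgeR adjusted p = 0.00029). Of all tested genes, 13.8% changed in this comparison of controls. At 30 °C, both Pp3c15_4270 and Pp3c19_15000 rose after 1 h, by 1.49 and 1.24, and neither at the later times. Of all tested genes, 12.7%, 13.8%, 16.7% and 18.0% rose at 37 °C at the 4 times, and 2.46%, 0.658%, 1.61% and 9.30% at 30 °C. Pp3c9_6640 and Pp3c15_4270 carry the same name in those tables, and reads from shared stretches of such copies could be split between them.

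Genes for partners of HSP90 were counted from lists chosen with earlier results of these data known, and their names come from tables of genes that responded in these libraries, so that the direction is not independent evidence. Of 4 co-chaperones, all rose at every time at 37 °C, with medians of 3.12, 1.66, 2.61 and 2.75 on the log2 scale at 1, 6, 12 and 24 h. Over all tested genes, 12.7%, 13.8%, 16.7% and 18.0% rose at these times, and the medians lay between 0.00 and 0.08. The Aha1 homolog Pp3c15_21400 rose by 4.43 ± 0.24 after 1 h and 2.85 ± 0.23 after 24 h. Pp3c12_18980, a homolog of the peptidyl-prolyl isomerase cyclophilin-40, rose by 3.57 after 1 h, 1.36 after 6 h and 3.57 after 24 h. The Hop homolog Pp3c11_20290, whose site is shown above, rose by 2.66, 1.61, 1.79 and 2.13. Pp3c14_10540, a homolog of RAR1, which acts with HSP90 in plant immunity, rose by 2.46 after 1 h and 2.64 after 24 h. At 30 °C, 4 of 4 rose after 1 h (median 1.57), and 1, 1 and 2 of 4 at the later times, beside 2.46%, 0.658%, 1.61% and 9.30% of all tested genes.

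Of 4 genes for folding in the ER, all rose after 1 h at 37 °C (median 2.28), and 1, 2 and 2 did after 6, 12 and 24 h, against 12.7%, 13.8%, 16.7% and 18.0% of all tested genes. Pp3c2_9790, a homolog of the ER co-chaperone P58IPK, rose by 1.91, 2.90, 3.70 and 2.31 at the 4 times. The ER HSP70 homolog Pp3c14_19430 rose by 2.66 after 1 h and 1.31 after 24 h, and the J-domain protein Pp3c12_8210 rose after 1 h only (1.70), with values of 0.49 to 0.78 later. Pp3c16_14150, an ER oxidoreductin, which drives disulfide formation, rose by 2.65 after 1 h and fell by 1.29 after 24 h. At 30 °C, 2 of 4 rose after 1 h, when 2.46% of all genes did, and none later. The time course of Pp3c14_3360 at 37 °C was therefore not that of each gene of this list.

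Among 9 genes of the HSP70 family, the numbers that rose at 37 °C were 9, 8, 9 and 7 at 1, 6, 12 and 24 h (medians 3.39, 2.42, 2.57 and 1.54). At 30 °C the numbers were 7, 1, 3 and 3. One of the 9 is Pp3c14_19430, which is also counted among the ER genes. Over all tested genes the shares were 12.7%, 13.8%, 16.7% and 18.0% at 37 °C, and 2.46%, 0.658%, 1.61% and 9.30% at 30 °C. The 24 °C controls of the HSP70 genes changed too. Against 1 h, 4 of 9 were lower after 6 h (median log2 -1.21). After 12 h, 5 were lower and 1 higher (median -1.34), and after 24 h 2 were lower (median -0.76). Of all tested genes, 13.8%, 14.1% and 3.74% changed in these comparisons. The later fold changes are against these changed controls, and do not by themselves show a held level. Of 4 heat shock factors, 4, 4, 3 and 1 rose at 37 °C (medians 3.09, 1.37, 1.27 and -0.08), and 2 rose after 1 h at 30 °C, where later none rose and 1 fell after 24 h. The factor Pp3c21_18820 rose by 4.64 ± 0.34 after 1 h at 37 °C and was at -0.70 ± 0.30 after 24 h (adjusted p = 0.054), whereas Pp3c11_20430 rose by 1.78 after 1 h and 1.64 after 24 h. The study describes Pp3c21_18820 and Pp3c22_9250 as homologs of Arabidopsis Hsf2B, and proposes that they may act as negative regulators of the heat response. The controls of these 2 factors were themselves higher at 24 h than at 1 h. At 24 °C, Pp3c21_18820 rose by 2.15 ± 0.33 (adjusted p = 0.0013), from 8.34 ± 1.01 to 36.7 ± 17.9 CPM (SD, n = 2), and Pp3c22_9250 rose by 2.27 ± 0.31 (adjusted p = 0.00066).

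**Figure D4:**
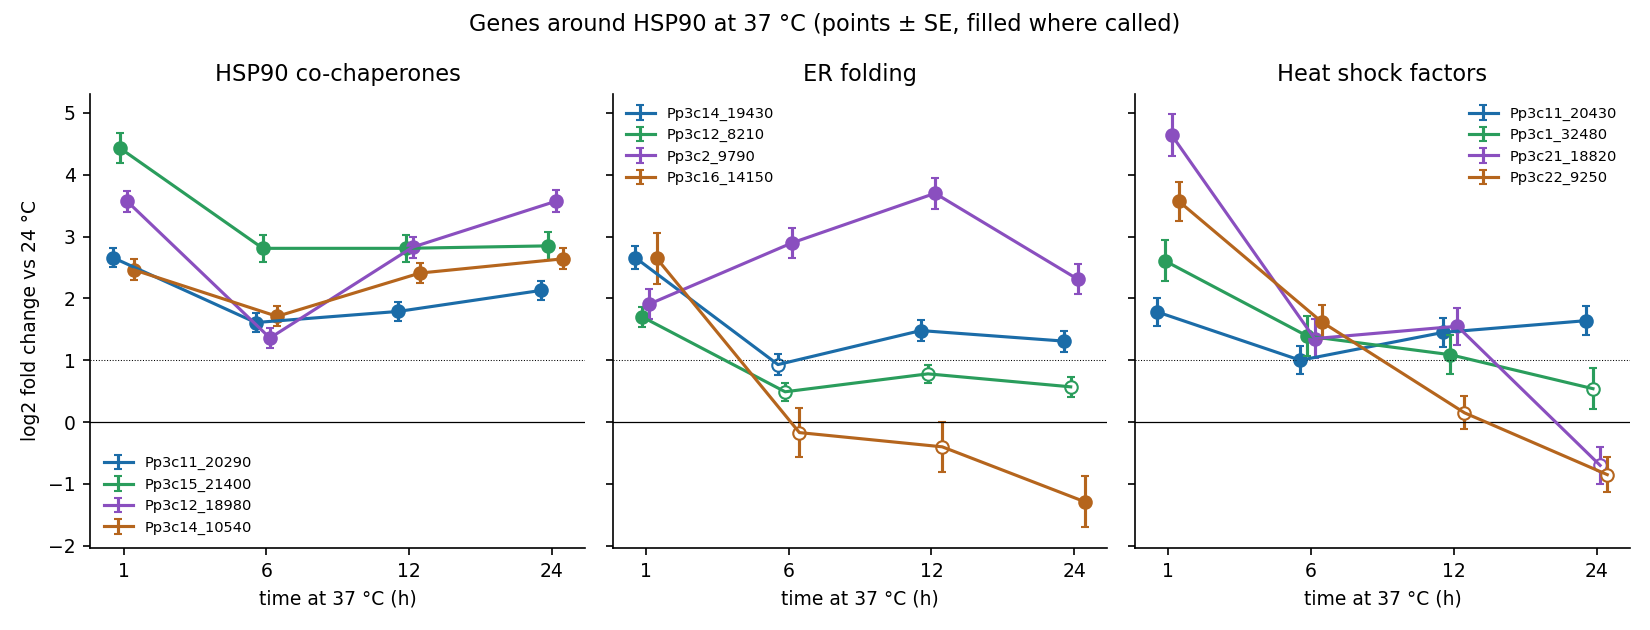
Log2 fold change at 37 °C against 24 °C of the same time (y axis) by hours of exposure (x axis) for 4 HSP90 co-chaperones, 4 genes of ER folding and 4 heat shock factors, with bars for the standard error and filled points where the gene rose or fell. All co-chaperones stay above 1, the ER genes lie between -1.29 and 3.70, and the heat shock factors between -0.85 and 4.64.

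The genes most like each member were ranked by the Pearson correlation of log2 CPM over the 24 libraries, among 17189 genes with a mean log2 CPM of at least 1. The libraries share temperatures and times, so the correlations are a description. Closest to Pp3c9_6640 were its cytosolic relative Pp3c15_4270 (r = 0.970), the ER HSP70 homolog Pp3c14_19430 (0.968), the DNAJ family gene Pp3c12_2810 (0.968), Pp3c5_11340 (0.965) and the rhomboid-like protease gene Pp3c9_8740 (0.959). For Pp3c14_3360 they were Pp3c8_7210 (r = 0.993), the transmembrane protein gene Pp3c19_13340 (0.991), Pp3c20_8620, named protein phosphatase 5.2 (0.990), the phosphatase-like gene Pp3c22_12710 (0.989) and Pp3c19_2600 (0.987). The 2 members correlated with each other at r = 0.889, which placed Pp3c14_3360 at rank 113 for Pp3c9_6640, and Pp3c9_6640 at rank 210 for Pp3c14_3360. With group means in place of libraries, 4 of 5 of each list stayed among the closest 5, and with Spearman correlations 0 of 5 did.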

How the data were processed

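Stranded poly(A) libraries of 24 protonema samples were sequenced. The authors deposited unscaled counts of reads for each gene, made with bcl2fastq 1.8.4, BWA-MEM 0.7.17.1 (versions per the labels) and featureCounts at default settings on genome and annotation Ppatens_318_v3.3. Default counting ignores strand, so antisense and overlapping genes cannot be told apart.

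The tests used edgeR 4.0.16 under R 4.3.3. A gene was tested if 2 or more libraries exceeded 0.5 CPM (21429 of 32926), TMM factors were 0.652 to 1.19, and 1 quasi-likelihood model of 12 groups was fitted to all 24 libraries. P-values were adjusted (Benjamini-Hochberg) within each comparison. Standard errors are the log2 fold change divided by the square root of F. Members and lists were chosen with earlier results of these data known. Named genes are the members, the lists and the 5 genes most correlated with each member.

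Library totals were 4332911 to 10696081 reads. Chi-squares per gene between replicates were 3.00 to 42.6, highest after 1 h at 37 °C, so no library was a duplicate of the other one of its group. Libraries of different groups were not compared in this way. The replicates are biological per the study. The fit was tested on simulated data. No marker list for protonema was at hand, so the tissue label was not checked, and gene identifiers matched none of the reference table, so lengths and coordinates were not used here. Alternatives were limma 3.58.1 (treat or eBayes), DESeq2 1.42.0, RLE, library totals, other filters, no fold change limit, only 4 libraries, a replicate block, priors of 0.5 or 5 counts for the ratio, and each library left out.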

Additional observations from a re-analysis of the deposited data

Results flagged for a closer look

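The response to heat differed between times by a direct test (edgeR, adjusted p under 0.05, whatever the fold change) in 7 cases. At 37 °C, the response of Pp3c9_6640 differed from that at 1 h by -3.21 at 6 h, -2.67 at 12 h and -3.54 at 24 h on the log2 scale, and that of Pp3c14_3360 by -0.65 at 6 h. At 30 °C, the differences were -1.96 for Pp3c9_6640 at 24 h, and -1.15 at 6 h and -0.70 at 24 h for Pp3c14_3360. The values of -0.65 and -0.70 are under the fold change limit, and the calls at -1.96 and -1.15 were lost on leaving out any of 6 and any of 7 of the 8 libraries.

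The ratio of Pp3c9_6640 to Pp3c14_3360 moved in opposite directions at some of the times, where both heated libraries lay on the same side of both 24 °C libraries. On the log2 scale it was higher by 0.92 at 30 °C and by 1.89 at 37 °C after 1 h. It stood at -0.65 at 37 °C after 6 h, and after 24 h at -0.32 at 30 °C and -1.48 at 37 °C. At the remaining times heated and 24 °C libraries overlapped, with differences of 0.21 and 0.27 at 30 °C after 6 and 12 h, and -0.27 at 37 °C after 12 h. The difference of the ratio between times was not tested.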

How the results depend on the processing

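Over the members and their ratio, 598 values were recomputed under alternatives, of which 560 kept direction and call, 26 lost the call, 7 gained it and 5 changed sign. With limma-voom and treat, 6 rises were lost: Pp3c9_6640 after 1 h (2.85) and 12 h (1.59) at 30 °C and after 6 h (1.78) and 24 h (1.38) at 37 °C, and Pp3c14_3360 after 12 h (1.26) and 24 h (1.23) at 30 °C. With eBayes the response of Pp3c9_6640 at 30 °C, 24 h against 1 h, was lost (-1.96, adjusted p = 0.065). Library totals gave Pp3c9_6640 a rise after 24 h at 30 °C (1.14), took from Pp3c14_3360 the call for 37 °C against 30 °C at 1 h (0.79) and for the response at 30 °C, 6 h against 1 h (-1.0), and turned 2 of its differences without a call (0.08 for 24 h against 12 h at 30 °C, 0.37 for 24 h against 1 h at 37 °C). Without a fold change limit Pp3c14_3360 rose after 6 h at 30 °C (0.79), and DESeq2 called the response of Pp3c9_6640 at 30 °C, 6 h against 1 h (-1.85).

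With a library left out, calls or signs changed within these ranges: Pp3c9_6640 at 30 °C 12 h 1.03 to 2.01, at 37 °C 24 h 0.75 to 1.96, for 37 °C against 30 °C at 12 h 0.32 to 1.30 and at 24 h -0.18 to 1.03, and for the response at 30 °C, 24 h against 1 h, -2.25 to -1.61. For Pp3c14_3360 they were -1.24 to -1.06 (response at 30 °C, 6 h against 1 h) and -0.14 to 0.10 (24 h against 12 h). The ratio kept its 3 directions throughout.

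The replicate numbers gave deviations correlated between groups at -0.14 to 0.21 over all genes, so the samples were not treated as pairs, although replicate 1 was the higher one in 11 of 12 groups for both members. A replicate block called Pp3c9_6640 after 6 h at 30 °C (1.00, adjusted p = 0.035) and in the response at 30 °C, 6 h against 1 h (-1.84, adjusted p = 0.016, with 228 against 142 genes called). For 37 °C against 30 °C, pairing added after seeing the data, with crossed numbers, called 2052 genes at 1 h and 5275 at 12 h, against 596 and 4318 as numbered and 954 and 4881 unpaired, in fits of 4 libraries.

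Counts of genes that rose against 24 °C ran from 141 to 3860 over the 8 comparisons, from 1 to 1494 with treat and from 265 to 6181 without a fold change limit. After 1 h at 37 °C, library totals gave 1761 rising and 4698 falling genes in place of 2722 and 2291, and fits of 4 libraries 1340 falling. Of 64 such counts with a library left out, 18 moved by over 1.5 times. Pp3c9_6640, with 61 to 154 reads at 24 °C, had standard errors of 0.40 to 0.44 in the 8 comparisons with 24 °C, against 0.15 to 0.17 for Pp3c14_3360.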
